A study of Mus musculus with 12 samples.

Results

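The genes described here mark endothelial cells or carry vascular endothelial growth factor (VEGF) signalling in them: Vegfa, Kdr, Flt1, Eng, Cd34, Plvap, Egfl7, Mmrn2, S1pr1 and Gata2. They were taken by gene symbol from an Affymetrix mouse expression array data set, where these 10 genes of the 11015 named on the table had 19 of its 20523 probe sets. Aortic endothelial cells of mice aged 4 weeks were cultured, infected with a lentivirus and profiled. Cells titled Ets1/2 null had the genotype Ets1-/-; Ets2fl/fl and a virus with egfp and Cre, the recombinase that deletes floxed alleles. Cells titled Ets2 null were Ets1+/+; Ets2fl/fl with the same Cre virus. Cells titled Ets1 null were Ets1-/-; Ets2fl/fl with a virus carrying egfp without Cre. Wild-type cells were Ets1+/+; Ets2+/+ with the egfp virus. All groups therefore carried a lentivirus and egfp, Cre and the loss of Ets2 went together, and the Ets1 null cells had floxed Ets2 alleles that the wild-type cells lacked. The free-text notes of the single nulls call the gene wild type; titles and genotypes were followed. The other 3 groups had 3 arrays each, and the group labelled double null had 2, since a further column of that title held the mean of the other two. The labels call the arrays biological replicates without naming animals, so p-values measure the spread between these arrays, and their number limits the precision.

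VEGF-A, made from Vegfa, is a secreted growth factor that binds 2 receptor tyrosine kinases on endothelial cells: VEGFR2, made from Kdr, which carries most of the growth and migration signal, and VEGFR1, made from Flt1, which binds the ligand tightly and acts largely as a decoy. Endoglin, made from Eng, is a co-receptor for ligands of the TGF-beta family, and S1pr1 encodes a receptor for the blood lipid sphingosine-1-phosphate that stabilises vessels. ETS factors, among them Ets1 and Ets2, bind DNA at a GGAA core, and the enhancers of many endothelial genes hold such cores.

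Several features of the arrays touch every value below. Values are on a log2 scale, on which a step of 1 is a 2-fold change. The median of an array over all probe sets was 8.30 and 8.29 on the arrays labelled double null, against 9.05 to 9.15 in the other 9 arrays. Differences were therefore tested on the deposited values and again on centred values, from which the median of the array was subtracted. Values and differences are as deposited unless they are called centred. Centring adds 0.795 to every difference of the arrays labelled double null from wild type, 0.844 to those from Ets1 null, 0.773 to those from Ets2 null and 0.822 to the interaction of both genes, and it moves the single null differences by -0.049 and 0.022 for Ets1 null and Ets2 null. The targeted genes did not settle the labels. The Ets1 probe set 1452163_at stood at 10.02 and 10.29 on the arrays labelled double null, at 9.50 to 9.88 in Ets2 null arrays, at 8.31 to 9.17 in Ets1 null arrays and at 9.84 to 10.26 in wild-type arrays. The Ets1 probe set 1422027_a_at went the other way, at 6.49 and 7.05 on the arrays labelled double null against 8.69 to 8.83 in wild-type arrays. The Ets2 probe set 1416268_at was at 11.02 and 9.63 on the arrays labelled double null, at 9.35 to 10.13 in Ets2 null arrays and at 9.72 to 10.70 in wild-type arrays. With the array medians subtracted, both arrays labelled double null lay above every wild-type array in 1452163_at. In 1416268_at they then lay above every Ets2 null array. In 1422027_a_at they stayed below every wild-type array. Whether any of these probe sets lies in a deleted part of its gene is not given in the sources used here, so each direction below rests on the titles. The Y-linked gene Eif2s3y was above 6 in all 3 Ets2 null arrays and in wild-type array 1, and between 3.12 and 3.66 in the other 7 arrays. By this measure the Ets2 null arrays were all male, the arrays labelled double null and Ets1 null were not, and wild type was mixed.

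Promoters are shown first, because the deleted factors recognise a short core: those of Vegfa, Eng and Gata2, which had a probe set called below, and that of Kdr, the main VEGF receptor, which had none. They are RefSeq windows of 300 bases on GRCm38.p6, from 250 bases before to 50 after the annotated start, and capitals mark GGAA or its complement TTCC. Egfl7 also had a probe set called below, and its windows are not shown.

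Vegfa, chr17:46032328-46032627, minus strand: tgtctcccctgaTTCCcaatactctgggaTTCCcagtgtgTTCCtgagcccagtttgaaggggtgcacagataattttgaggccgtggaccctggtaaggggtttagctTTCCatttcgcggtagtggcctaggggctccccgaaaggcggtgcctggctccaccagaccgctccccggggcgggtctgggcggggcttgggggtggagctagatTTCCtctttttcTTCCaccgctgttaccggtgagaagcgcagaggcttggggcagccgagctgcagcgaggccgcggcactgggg

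Kdr, chr5:75978406-75978705, minus strand: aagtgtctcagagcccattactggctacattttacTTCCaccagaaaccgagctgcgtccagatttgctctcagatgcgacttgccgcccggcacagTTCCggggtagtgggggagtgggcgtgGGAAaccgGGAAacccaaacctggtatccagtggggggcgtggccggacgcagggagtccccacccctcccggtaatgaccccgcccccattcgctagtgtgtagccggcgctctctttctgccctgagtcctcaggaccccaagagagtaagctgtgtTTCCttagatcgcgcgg

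Eng, chr2:32646345-32646644, plus strand: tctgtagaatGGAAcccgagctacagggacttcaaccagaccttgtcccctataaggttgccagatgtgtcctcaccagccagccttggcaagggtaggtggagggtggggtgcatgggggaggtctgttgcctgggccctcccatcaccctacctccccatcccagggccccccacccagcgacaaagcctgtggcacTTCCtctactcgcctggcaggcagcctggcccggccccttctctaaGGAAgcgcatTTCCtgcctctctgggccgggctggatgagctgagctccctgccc

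Gata2, chr6:88193641-88193940, plus strand: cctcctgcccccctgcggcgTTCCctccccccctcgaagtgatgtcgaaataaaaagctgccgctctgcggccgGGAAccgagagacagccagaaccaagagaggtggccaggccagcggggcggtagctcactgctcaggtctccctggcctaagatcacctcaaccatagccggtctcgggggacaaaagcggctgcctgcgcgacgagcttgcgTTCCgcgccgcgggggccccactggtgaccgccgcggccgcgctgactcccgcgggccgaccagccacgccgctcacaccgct

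The Vegfa window shown held the core 6 times, the Kdr window 5 times, the Eng window 4 times and the Gata2 window shown 3 times. Vegfa and Gata2 have 2 windows each, of which the one at the upstream start is shown, and the other held the core 3 times for Vegfa and 1 time for Gata2. Promoter windows were found for 7 of the 10 genes, 11 windows in all, and none was used here for S1pr1, Plvap and Mmrn2. The core on either strand was in 96.0% of 32851 promoter windows of the same length, with a median of 3 per window, so its presence does not set these genes apart. The longer sites CCGGAAGT and CAGGAAGT, which both contain the core, were in 3.89% and 3.33% of windows on either strand. Among the windows of these genes, CCGGAAGT was in none and CAGGAAGT in 1, of Egfl7. No binding was measured.

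A probe set was called when limma's adjusted p (Benjamini-Hochberg over all 20523 probe sets) was under 0.05 both in deposited and in centred values, with 1 direction. Each gene was counted by its brightest probe set. The comparison of the arrays labelled double null with Ets2 null arrays had the most calls: Vegfa rose, and Eng and Plvap fell. Over all probe sets, 3.12% were called higher there and 14.9% lower, so the share of these genes called lower was near the background. None of the 10 genes was called in either single null or on the arrays labelled double null against wild type. The shares called over all probe sets were 0.00487% in Ets1 null, 0.565% in Ets2 null and 17.3% on the arrays labelled double null. The plot of differences shows each of the 10 genes with its error.

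**Figure D1:**
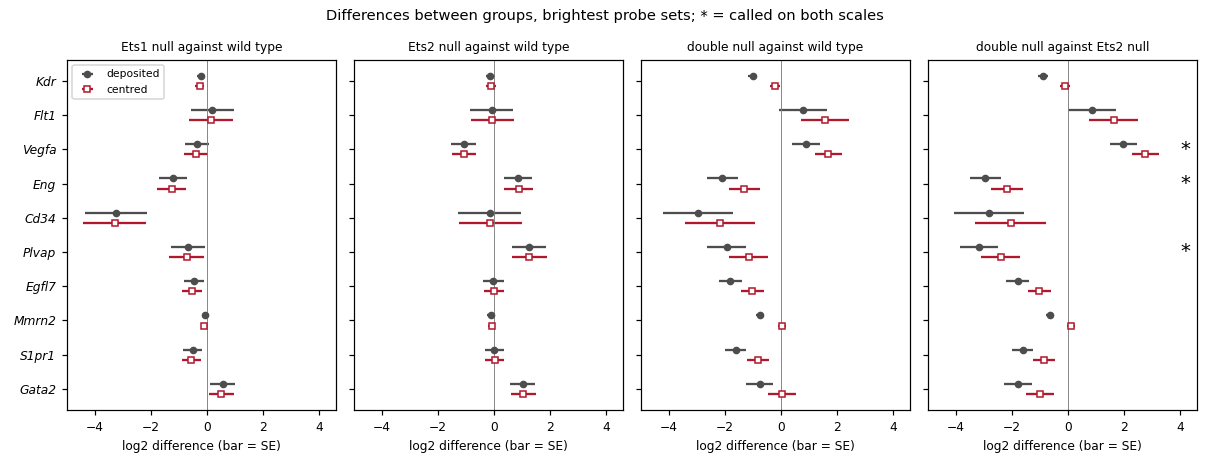
Log2 difference between groups for the brightest probe set of each gene, with limma's standard error as bars; filled grey points are deposited values and open red squares centred values. Each of 4 panels is 1 comparison, double null stands for the arrays labelled so, and a star marks a call on both scales. Stars stand only at Vegfa, Eng and Plvap in the comparison with Ets2 null arrays, and in both right-hand panels the centred points lie to the right of the deposited ones.

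Vegfa, the ligand, has 2 probe sets, and they differed. The brighter one, 1420909_at, stood at 10.13 and 11.02 on the arrays labelled double null, at 7.94, 8.35 and 9.52 in Ets2 null arrays, at 9.10, 9.53 and 9.38 in Ets1 null arrays and at 9.15, 9.61 and 10.31 in wild-type arrays. Both arrays labelled double null lay above every Ets2 null and Ets1 null array, and 1 of them lay below the highest wild-type array. In centred values they lay above every other array. The probe set was higher on the arrays labelled double null than in Ets2 null arrays by 1.98 ± 0.49 (SE, limma adjusted p = 0.00878), and by 2.75 in centred values (adjusted p = 0.00282). Without the second array labelled double null the difference was 1.53 and the call was lost (adjusted p = 0.0757).

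The other Vegfa probe set, 1451959_a_at, read 8.73 and 8.59 on the arrays labelled double null, 7.96, 8.44 and 9.01 in Ets2 null arrays, 9.12, 9.76 and 9.50 in Ets1 null arrays and 9.38, 9.76 and 9.85 in wild-type arrays. As deposited, the arrays labelled double null were within the range of the Ets2 null arrays and below all Ets1 null and wild-type arrays. Its difference from Ets2 null was 0.19 ± 0.30 as deposited (adjusted p = 0.637) and 0.96 centred (adjusted p = 0.0318), which is not a call on both scales. In Ets2 null cells, both probe sets were below wild type without passing the adjusted threshold. The difference was -1.09 ± 0.44 for 1420909_at (adjusted p = 0.208) and -1.19 ± 0.27 for 1451959_a_at (adjusted p = 0.0783). For 1451959_a_at every Ets2 null array lay below every wild-type array. A weighting of the arrays by their spread called the brighter set, at -1.23 (adjusted p = 0.022), and this weighting gave wild-type array 3 and Ets2 null array 3 the lowest weights, 0.297 and 0.299.

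The effect of Ets2 loss on Vegfa was then compared between cells without and with Ets1, as labelled, which is the interaction of both genes. For 1420909_at this difference of differences was 2.32 ± 0.66 (adjusted p = 0.0227), and 3.15 centred (adjusted p = 0.011). The parts behind it were 1.24 between the arrays labelled double null and Ets1 null, and -1.09 between Ets2 null and wild type. For 1451959_a_at it was 0.39 ± 0.41 (adjusted p = 0.485). Of the 10 genes, Vegfa was the only one whose brightest probe set was called here, against background shares of 1.44% of probe sets higher and 9.36% lower. Leaving out Ets2 null array 2 or the second array labelled double null ended this call, at 2.20 (adjusted p = 0.0507) and 1.88 (adjusted p = 0.0865), and averaging both probe sets ended it at 1.36 (adjusted p = 0.0613).

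Kdr, the main signalling receptor, was dim and varied little within groups. It ranked between percentiles 9.55 and 21.42 of the probe sets on an array, and whether so dim a reading follows the transcript was not tested. Its probe set read 6.28 and 6.56 on the arrays labelled double null, 7.51, 7.21 and 7.21 in Ets2 null arrays, 7.43, 7.15 and 7.11 in Ets1 null arrays and 7.60, 7.39 and 7.33 in wild-type arrays. As deposited, both arrays labelled double null lay below all others. The difference from wild type was -1.02 ± 0.17 as deposited (adjusted p = 0.0012) and -0.22 ± 0.18 centred (adjusted p = 0.369). The centred values of Kdr, -2.02 and -1.73 on the arrays labelled double null and between -1.78 and -1.45 in wild-type arrays, overlapped. The single nulls differed from wild type by -0.21 ± 0.15 for Ets1 null (adjusted p = 0.717) and -0.13 ± 0.15 for Ets2 null (adjusted p = 0.675).

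Flt1, the decoy receptor, varied widely within groups. The brightest of its 4 probe sets, 1419300_at, read 7.78 and 9.48 on the arrays labelled double null, 7.91, 9.38 and 6.03 in Ets2 null arrays, 8.58, 7.88 and 7.69 in Ets1 null arrays and 8.44, 7.69 and 7.44 in wild-type arrays. As deposited the groups overlapped, while in centred values both arrays labelled double null, at -0.52 and 1.19, lay above every Ets1 null and wild-type array. The spread was widest among Ets2 null arrays (SD 1.68, n = 3). All 4 probe sets gave Ets2 null array 3 the lowest value of its group and Ets2 null array 2 the highest. They all gave the second array labelled double null a higher value than the first.

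None of the Flt1 probe sets was called in any comparison on both scales. Against wild type, 1419300_at differed by 0.78 ± 0.86 on the arrays labelled double null (adjusted p = 0.481; 1.57 centred, adjusted p = 0.188), by -0.08 ± 0.77 in Ets2 null arrays (adjusted p = 0.965) and by 0.19 ± 0.77 in Ets1 null arrays (adjusted p = 0.963). Probe set 1440926_at was at 6.89 and 9.02 on the arrays labelled double null against 7.06, 6.77 and 6.79 in wild-type arrays, a difference of 1.08 ± 0.61 (adjusted p = 0.169) and of 1.88 centred (adjusted p = 0.0399). Probe set 1451756_at differed from wild type there by 0.41 ± 0.47 and 1454037_a_at by -0.47 ± 0.59, so the 4 sets did not share a direction as deposited. In centred values all 4 differences were above 0, with 1.21 for 1451756_at and 0.32 for 1454037_a_at.

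**Figure D2:**
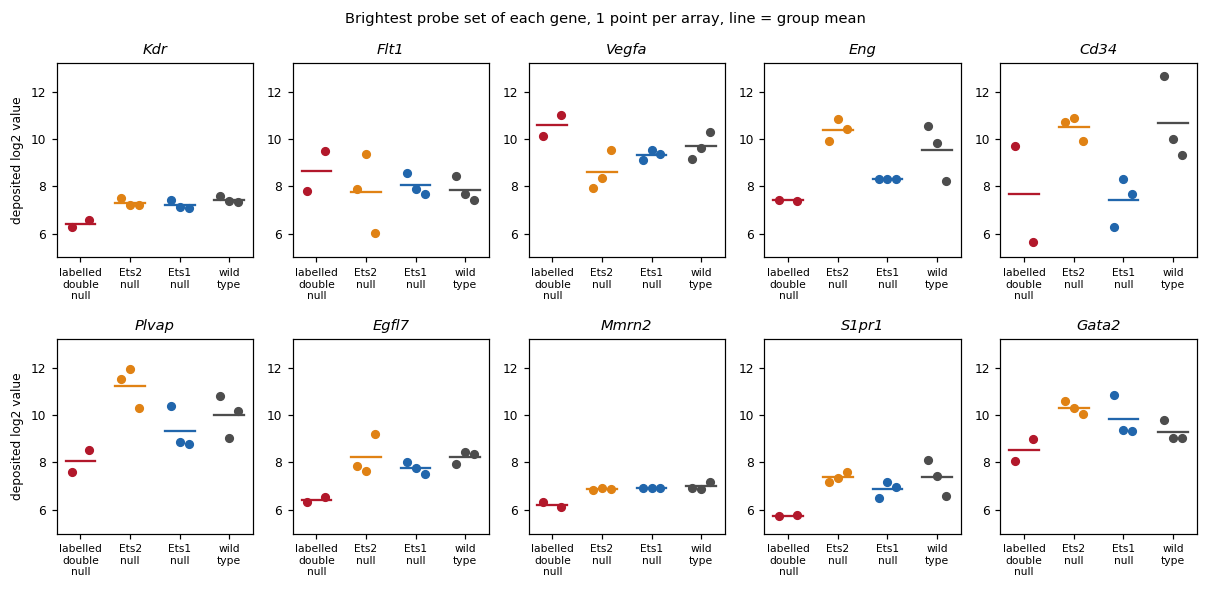
Deposited log2 value of the brightest probe set of each of the 10 genes, 1 point per array, with the group mean as a line; the 2 arrays labelled double null, then 3 Ets2 null, 3 Ets1 null and 3 wild-type arrays. Eng separates into high Ets2 null arrays and low arrays labelled double null and Ets1 null, while wild-type array 3 sits at 8.21, beside the Ets1 null arrays; Cd34 and Flt1 scatter widely within groups.

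Eng, the endoglin co-receptor, separated the groups more than its arrays varied within most of them. Probe set 1417271_a_at read 7.44 and 7.39 on the arrays labelled double null, 9.91, 10.82 and 10.41 in Ets2 null arrays, 8.29, 8.29 and 8.32 in Ets1 null arrays and 10.54, 9.81 and 8.21 in wild-type arrays. As deposited, the 2 arrays labelled double null were below all others, the 3 Ets1 null arrays lay together, and wild-type array 3 lay just under them while its 2 companions lay with the Ets2 null arrays. In centred values the arrays labelled double null, at -0.863 and -0.901, lay beside the Ets1 null arrays, at -0.851 to -0.825, and wild-type array 3, at -0.904, and they differed from Ets1 null by -0.05 (adjusted p = 0.96). Eng fell on the arrays labelled double null relative to Ets2 null arrays, at a difference of -2.97 ± 0.55 (SE, adjusted p = 0.00204), and at -2.19 centred (adjusted p = 0.0161).

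The second Eng probe set, 1432176_a_at, repeated the deposited order, at 6.08 and 5.87 on the arrays labelled double null, 8.34, 9.13 and 8.32 in Ets2 null arrays, 6.30, 6.50 and 6.42 in Ets1 null arrays and 8.75, 8.36 and 6.34 in wild-type arrays. It was also called against Ets2 null, at -2.63 ± 0.60 (adjusted p = 0.00573) and -1.85 centred (adjusted p = 0.0412). Against wild type, 1417271_a_at differed by -2.11 ± 0.55 on the arrays labelled double null (adjusted p = 0.0117) but by -1.31 ± 0.57 centred (adjusted p = 0.101), so it was not called on both scales. In Ets1 null arrays it differed from wild type by -1.22 ± 0.50 (adjusted p = 0.51). That value turned on wild-type array 3: without it the Ets1 null difference was -1.87 (adjusted p = 0.0484) and -1.93 centred (adjusted p = 0.0493), and Eng was called. Without that array the arrays labelled double null were called too, at -2.76 against wild type. The call against Ets2 null was lost in centred values without Ets2 null array 2 (adjusted p = 0.0511) or without either array labelled double null (adjusted p = 0.0638 and 0.0705).

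Cd34 encodes a sialomucin of the surface of endothelial and blood progenitor cells, and it had the widest span of the 10 genes, 7.01 over the 11 arrays. Its probe set read 9.70 and 5.66 on the arrays labelled double null, 10.73, 10.88 and 9.91 in Ets2 null arrays, 6.27, 8.30 and 7.67 in Ets1 null arrays and 12.67, 9.99 and 9.33 in wild-type arrays. Every Ets1 null array lay below every wild-type and every Ets2 null array, and the 2 arrays labelled double null were far apart. The Ets1 null difference from wild type was -3.25 ± 1.12, the largest of the 10 genes in that comparison, with an adjusted p of 0.47. In the arrays labelled double null the difference was -2.99 ± 1.25 (adjusted p = 0.0751; -2.19 centred, adjusted p = 0.204), and without the first of them, which leaves 1 array assumed to vary like the other groups, it was -5.01 and called. In Ets2 null arrays it was -0.16 ± 1.12 (adjusted p = 0.953).

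Plvap encodes the protein of the diaphragms that span caveolae and fenestrae of endothelial cells. It read 7.59 and 8.52 on the arrays labelled double null, 11.51, 11.93 and 10.29 in Ets2 null arrays, 10.37, 8.86 and 8.78 in Ets1 null arrays and 10.80, 9.03 and 10.17 in wild-type arrays. As deposited, the arrays labelled double null lay below all others, and the Ets2 null arrays averaged 11.25 ± 0.85 (SD, n = 3), with 10.003 ± 0.90 for the 3 wild-type arrays. Plvap fell relative to Ets2 null, at a difference of -3.19 ± 0.69 (adjusted p = 0.00433) and -2.42 centred (adjusted p = 0.0253). Relative to wild type the difference was -1.95 ± 0.69 (adjusted p = 0.0411) but -1.15 ± 0.70 centred (adjusted p = 0.227). The Ets2 null difference from wild type was 1.24 ± 0.61 (adjusted p = 0.285), and with array weights it was 1.96 and called (adjusted p = 0.0351). The call against Ets2 null was lost in centred values without Ets2 null array 1 (adjusted p = 0.0682), without Ets2 null array 2 (adjusted p = 0.0757) or without the first array labelled double null (adjusted p = 0.144).

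Egfl7 encodes a small matrix protein that endothelial cells secrete around growing vessels, and its 4 probe sets gave 2 answers. The brightest, 1451427_a_at, read 6.32 and 6.52 on the arrays labelled double null, 7.85, 7.62 and 9.19 in Ets2 null arrays, 8.03, 7.77 and 7.51 in Ets1 null arrays and 7.95, 8.43 and 8.35 in wild-type arrays. Both arrays labelled double null were below all others on both scales. The difference from wild type was -1.82 ± 0.41 (adjusted p = 0.00544) and -1.02 ± 0.40 centred (adjusted p = 0.0754). Its neighbour 1451428_x_at, at 6.30 and 6.32 on the arrays labelled double null against 8.02, 8.18 and 8.59 in wild-type arrays, was called lower on both scales, at -1.96 ± 0.34 (adjusted p = 0.00124) and -1.16 centred (adjusted p = 0.0223). It was also called against Ets2 null, at -2.02 ± 0.34 (adjusted p = 0.00104) and -1.25 centred (adjusted p = 0.0168).

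The other Egfl7 probe sets were called in no comparison on both scales. For 1435823_x_at the difference from wild type was -0.92 ± 0.20 as deposited and -0.13 centred (adjusted p = 0.631). For 1421335_a_at, which spanned 0.50 over all arrays, it was -0.18 ± 0.18 as deposited and 0.62 centred (adjusted p = 0.0225). Its sign therefore changed with the scale. Centred, it was also higher on the arrays labelled double null than in Ets2 null arrays, by 0.63 (adjusted p = 0.0209), and than in Ets1 null arrays, by 0.72 (adjusted p = 0.0117). Without Ets2 null array 3, whose 9.19 was the highest Egfl7 value of all arrays, the brightest set was called lower against wild type too. Neither single null differed from wild type past the threshold in any Egfl7 probe set; the largest of these differences was -0.71 ± 0.30 for 1451428_x_at in Ets1 null arrays (adjusted p = 0.517).

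**Figure D3:**
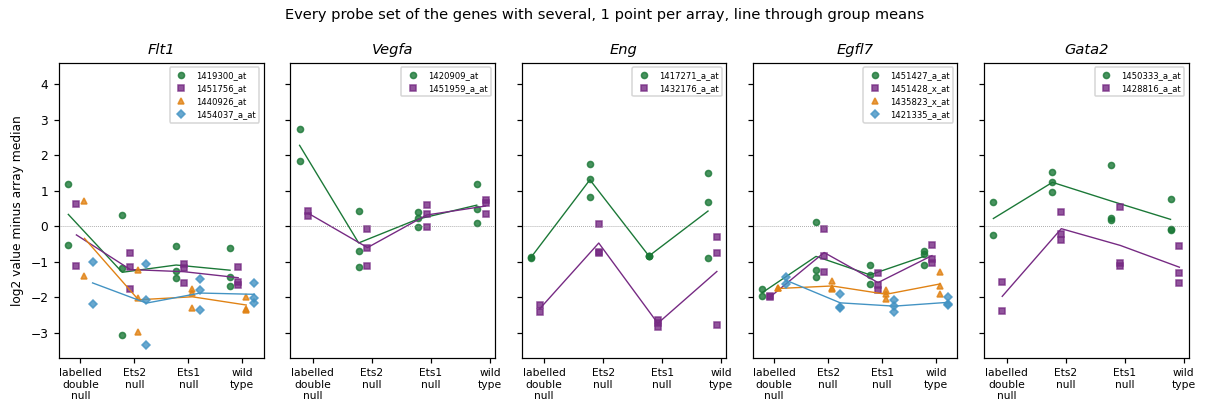
Centred log2 values (log2 value minus array median) of every probe set of the 5 genes with several, 1 point per array, with a line through the group means. The 2 Eng sets run in parallel, the Vegfa sets part at the arrays labelled double null (1.83 and 2.73 against 0.43 and 0.30), and the Egfl7 set 1421335_a_at is highest on the arrays labelled double null, at -1.62 and -1.43 against -2.23 to -1.999 in wild-type arrays.

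Mmrn2 encodes multimerin-2, a matrix protein that endothelial cells lay down and that binds VEGF-A. It read 6.32 and 6.12 on the arrays labelled double null, 6.85, 6.91 and 6.87 in Ets2 null arrays, 6.92, 6.94 and 6.94 in Ets1 null arrays and 6.90, 6.86 and 7.20 in wild-type arrays. The deposited values were lower in both arrays labelled double null than in all others, with a difference of -0.77 ± 0.14 against wild type (adjusted p = 0.00184). The centred difference was 0.03 ± 0.14 (adjusted p = 0.888), and the centred values spanned 0.34 over all 11 arrays. No Mmrn2 group mean was above 7, so it was the 1 gene of the 10 that a filter on group means above 7 dropped. It ranked between percentiles 7.74 and 13.46 of the probe sets on an array, so it was dim throughout.

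S1pr1, the sphingosine-1-phosphate receptor, read 5.74 and 5.78 on the arrays labelled double null, 7.19, 7.36 and 7.60 in Ets2 null arrays, 6.50, 7.16 and 6.96 in Ets1 null arrays and 8.11, 7.44 and 6.59 in wild-type arrays. As with Eng, wild-type array 3 lay at the level of the Ets1 null arrays, and both arrays labelled double null lay below all others as deposited. The difference from wild type was -1.62 ± 0.38 (adjusted p = 0.00665) and -0.83 ± 0.39 centred (adjusted p = 0.128), and without wild-type array 3 it was -2.02 and called on both scales. Against Ets2 null it was -1.62 ± 0.38 (adjusted p = 0.00663) and -0.85 centred (adjusted p = 0.12). The Ets2 null mean of 7.38 ± 0.21 equalled that of wild type, 7.38 ± 0.76 (SD, n = 3 each). S1pr1 was dim as well, ranking between percentiles 3.53 and 31.2 of the probe sets on an array.

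Gata2 encodes a zinc-finger transcription factor of endothelial and blood cells. Its brighter probe set, 1450333_a_at, read 8.05 and 8.98 on the arrays labelled double null, 10.59, 10.30 and 10.03 in Ets2 null arrays, 10.85, 9.38 and 9.32 in Ets1 null arrays and 9.81, 9.03 and 9.02 in wild-type arrays. The Ets2 null arrays were all above the wild-type arrays, by 1.02 ± 0.44 with an adjusted p of 0.229. The arrays labelled double null were below every other array as deposited, but in centred values, at -0.25 and 0.69, they overlapped the wild-type arrays, at -0.09 to 0.76. The second probe set, 1428816_a_at, was at 5.91 and 6.74 on the arrays labelled double null, 9.48, 8.85 and 8.68 in Ets2 null arrays, 9.68, 8.10 and 8.02 in Ets1 null arrays and 8.50, 7.80 and 7.51 in wild-type arrays.

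Gata2 was called in the second probe set, 1428816_a_at, but not in the first. Against Ets2 null it fell on the arrays labelled double null, at -2.68 ± 0.53 (adjusted p = 0.00271) and -1.91 centred (adjusted p = 0.023). The brighter set gave -1.79 ± 0.49 (adjusted p = 0.0137) and -1.02 centred (adjusted p = 0.141). The interaction was -3.34 ± 0.71 for 1428816_a_at (adjusted p = 0.00626; -2.52 centred, adjusted p = 0.0391) and -2.35 ± 0.66 for 1450333_a_at (adjusted p = 0.0211; -1.53 centred, adjusted p = 0.137). Against wild type, the arrays labelled double null differed by -1.62 ± 0.53 in 1428816_a_at and by -0.77 ± 0.49 in 1450333_a_at, and the centred differences were -0.82 and 0.02.

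Counted over the 10 genes, the comparison of Ets1 null with wild type had 0 calls, against 0.00487% of all probe sets (1 of 20523). Limma's unadjusted p was under 0.05 for 2 genes, Cd34 and Eng, and for 1900 of the 20523 probe sets. In all, 8 of the 10 differences were below 0, with a median of -0.41, against 0.03 over all probe sets. In Ets2 null against wild type 0 of 10 were called, against 0.565% of all probe sets. The 2 genes with an unadjusted p under 0.05 there were Vegfa, which was lower, and Gata2, which was higher. Over all probe sets, 4248 of 20523 had such a p. Here the median was -0.05, against -0.01 over all probe sets.

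In the arrays labelled double null against wild type, 0 of 10 were called on both scales, against 17.3% of all probe sets. An unadjusted p under 0.05 was found for 7 of the 10 genes and for 11432 of the 20523 probe sets. Deposited values alone put 6 genes lower (Egfl7, Eng, Kdr, Mmrn2, Plvap and S1pr1), where 46.0% of all probe sets were lower. Centred values alone put 1 higher, Vegfa at 1.69 (adjusted p = 0.0237), and 0 lower, where 21.6% of all probe sets were higher and 14.4% lower. Against Ets1 null, 0 of 10 were called on both scales, where 15.5% of all probe sets were. An unadjusted p under 0.05 was found for 6 of the 10 genes and for 11159 of the 20523 probe sets. Deposited values put 5 lower (46.0% of all probe sets), and centred values put 1 higher, Vegfa at 2.08 (adjusted p = 0.00998; 21.8% of all probe sets).

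Against Ets2 null, 1 of 10 was called higher (3.12% of all probe sets) and 2 of 10 lower (14.9% of all probe sets); the share of these genes called lower was near that background. Deposited values alone put 7 lower, where 45.7% of all probe sets were. The median difference of the 10 genes was -1.71 as deposited and -0.94 centred, beside -0.60 and 0.17 over all probe sets. In the interaction, deposited values alone put 3 of 10 lower, where 34.0% of all probe sets were. The comparisons with the arrays labelled double null share those 2 arrays, and the comparisons with wild type share its 3 arrays. A fit with a term for male arrays, in which wild-type array 1 alone ties the sexes within a group, left 0 of the 3 calls against Ets2 null: Vegfa was at 1.17 (adjusted p = 0.318), Eng at -1.43 (adjusted p = 0.187) and Plvap at -1.99 (adjusted p = 0.224). The part of sex in these differences cannot be told apart from that of the genotype in the Ets2 null arrays, all 3 of which were male.

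The endothelial label could be checked in part only. Of 65 classical endothelial markers, 26 had a probe set with their symbol alone, and 39 had none on the table used here. Among the 39 are the junction and adhesion molecules Pecam1, Cdh5, Cldn5, Esam, Icam2 and Emcn, the receptors Tek, Tie1, Flt4, Robo4, Acvrl1 and Ptprb, and von Willebrand factor (Vwf) and nitric oxide synthase (Nos3). The transcription factors Erg, Fli1, Sox7, Sox17, Sox18, Tal1, Lmo2, Hhex and Prox1 are among them as well. Further ones are Clec14a, Cd93, Ecscr, She, Ly6a, Rasip1, Arhgef15, Stab1, Stab2, Sele, Icam1, Gpihbp1, Lyve1, Tbx1 and Gja5, and Ly6c1 occurred only in a probe set with several symbols. Their levels were not analysed here, so the identity of the cells was not tested on the genes that define it best.

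Of the 26 classical markers on the table, limma called 0 in Ets1 null and 0 in Ets2 null arrays, where 3 and 4 had an unadjusted p under 0.05. Over all 20523 probe sets, 1900 and 4248 did. In the arrays labelled double null against wild type, 2 of 26 fell and 0 rose, where 14.4% of all probe sets were called lower and 2.87% higher on both scales. Ephb4, a receptor of veins, was at 7.61 and 7.66 on the arrays labelled double null and at 8.89, 8.998 and 9.12 in wild-type arrays, a difference of -1.37 ± 0.17 (adjusted p = 0.000203) and -0.57 centred. Thbd, the anticoagulant receptor thrombomodulin, was at 8.20 and 3.98 on the arrays labelled double null and at 11.19, 8.78 and 10.37 in wild-type arrays, a difference of -4.02 ± 1.08 (adjusted p = 0.0127) and -3.23 centred. In Ets1 null arrays Thbd stood at 5.29, 5.12 and 4.78, below all wild-type arrays, at -5.05 ± 0.96 with an adjusted p of 0.232. The median difference of the 26 markers was -0.66 as deposited and 0.13 centred, beside -0.63 and 0.16 over all probe sets.

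Against Ets2 null, 3 of the 26 rose and 2 fell on the arrays labelled double null, where 3.12% of all probe sets were called higher and 14.9% lower. Cav1, the main protein of caveolae, rose by 1.70 ± 0.35 (adjusted p = 0.00362; 2.47 centred), and the transcription factor Tbx3 differed by -3.98 ± 0.96 (adjusted p = 0.00785; -3.20 centred). Cav1 was at 13.47 and 12.95 on the arrays labelled double null, at 11.25, 11.08 and 12.20 in Ets2 null arrays and at 12.94, 13.46 and 12.60 in wild-type arrays, so the arrays labelled double null and the wild-type arrays overlapped. Plvap, which also belongs to caveolae, was called in the other direction. In the interaction 2 of 26 rose, where 1.44% of all probe sets were called higher: Cav1 at 1.57 ± 0.47 (adjusted p = 0.0294) and Apln, the ligand of the apelin receptor, at 1.56 ± 0.41 (adjusted p = 0.016).

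**Figure D4:**
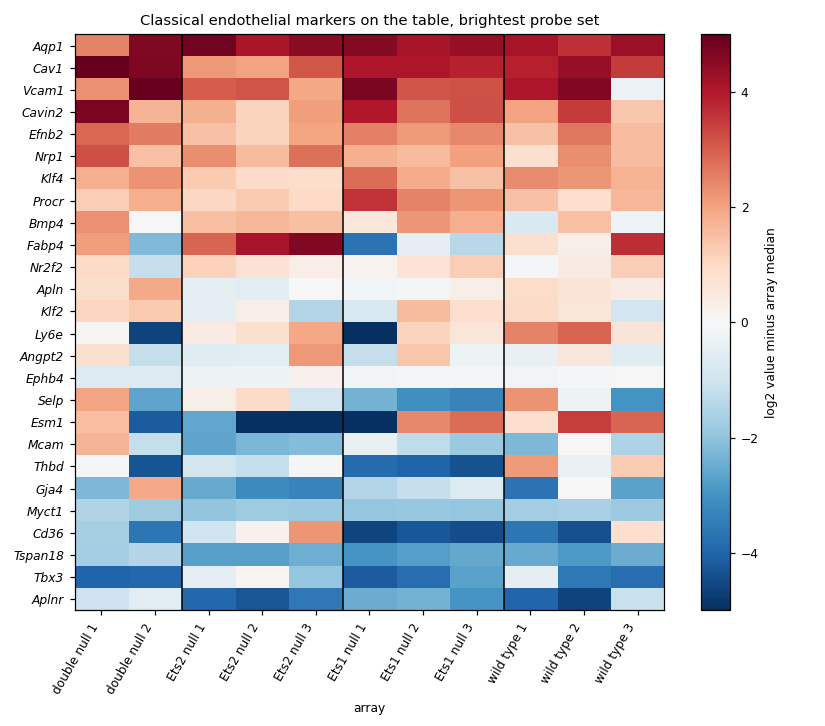
Centred log2 values (log2 value minus array median, colour scale ending at 5 in both directions) of the 26 classical endothelial markers on the table, 1 row per gene and 1 column per array, with the 2 arrays labelled double null at the left and wild type at the right. Thbd is dark blue in all 3 Ets1 null arrays and in the second array labelled double null, and most genes vary more within groups than Ephb4 does.

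The pathway around VEGF was represented by 44 of 58 listed ligands, receptors and signalling genes beside the 10 genes. In Ets1 null and Ets2 null arrays 0 of them were called by limma, with 6 and 7 at an unadjusted p under 0.05 (1900 and 4248 of all 20523 probe sets). In the arrays labelled double null against wild type, 6 of 44 fell and 0 rose, a share called lower near the 14.4% of all probe sets. Notch1, a receptor that limits sprouting, was at 7.43 and 7.62 on the arrays labelled double null and at 9.71, 9.45 and 9.56 in wild-type arrays, a difference of -2.05 ± 0.21 (adjusted p = 6.44e-05) and -1.26 centred (adjusted p = 0.00219). Akt1, a kinase downstream of VEGFR2, differed by -1.76 ± 0.22 (adjusted p = 0.000193) and by -0.97 centred (adjusted p = 0.0105). The kinase Src differed by -1.58 ± 0.20 and -0.79 centred, and the small GTPase Cdc42 by -1.53 ± 0.18 and -0.74 centred. The 4 Cdc42 probe sets disagreed, with 2 that were not called, at -0.04 and -0.25 centred. The median of the 44 was -0.71 as deposited and 0.08 centred. Against Ets2 null, 2 rose and 7 fell, shares near the 3.12% and 14.9% of all probe sets, with Notch1 at -2.99 ± 0.21 (adjusted p = 9.11e-06) and -2.22 centred. In the interaction 1 rose and 1 fell, where 1.44% of all probe sets were called higher and 9.36% lower.

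Partners of Eng and S1pr1 were represented by 13 of 16 listed genes. In Ets1 null and Ets2 null arrays 0 were called by limma, with 1 and 5 at an unadjusted p under 0.05 (1900 and 4248 of all 20523 probe sets). In the arrays labelled double null against wild type, 1 rose, the BMP receptor gene Bmpr2, and 2 fell, where 2.87% of all probe sets were called higher and 14.4% lower. Smad5, a transducer of BMP signals, was at 7.25 and 7.08 on the arrays labelled double null and at 9.90, 9.41 and 10.002 in wild-type arrays, a difference of -2.61 ± 0.20 (adjusted p = 1.49e-05) and -1.81 centred. Id1, a target gene of BMP signals, was at 8.91 and 9.13 on the arrays labelled double null and at 11.51, 11.24 and 10.88 in wild-type arrays, a difference of -2.19 ± 0.24 (adjusted p = 0.000107) and -1.40 centred. The interaction was also called for Smad5, at -3.02 ± 0.26 (-2.20 centred), and for Id1, at -2.93 (-2.11 centred).

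Markers of other cell types were read on the same arrays. The median centred value of 18 of 25 fibroblast markers was 3.08 and 0.33 on the arrays labelled double null, from 1.07 to 2.82 in Ets2 null arrays, from 0.25 to 2.07 in Ets1 null arrays and from 1.38 to 2.72 in wild-type arrays. For 13 of 21 smooth muscle and pericyte markers it was 0.32 and -0.38 on the arrays labelled double null, from -0.11 to 0.25 in Ets2 null arrays, from -2.02 to -0.08 in Ets1 null arrays and from -0.82 to 0.53 in wild-type arrays. For the 26 classical endothelial markers it was 1.16 and -0.595 on the arrays labelled double null and from 0.03 to 0.60 in Ets2 null arrays. It ran from -0.59 to 0.89 in Ets1 null arrays and from 0.52 to 0.82 in wild-type arrays. On every array the endothelial median was below the fibroblast median, and what this says of the cells was not tested. The first array labelled double null was the higher of the pair in each of these lists and for Cd34. It was also the higher one for the listed VEGF pathway genes, at 0.96 and 0.51, and for the partners of Eng and S1pr1, at 1.35 and 0.835. The pattern was thus not particular to fibroblast or smooth muscle markers. For the fibroblast, smooth muscle and endothelial lists, the range of the arrays labelled double null overlapped that of every other group. Against Ets2 null, 1 of the 18 fibroblast markers was called higher and 2 lower, where 3.12% of all probe sets were called higher and 14.9% lower. Of the 18 differences, 13 were below 0 as deposited and 9 centred. The collagen gene Col1a1 rose by 2.72 ± 0.61 (adjusted p = 0.00516), while Dpt, the matrix protein dermatopontin, differed by -4.86 ± 0.67 (adjusted p = 0.000356) and Gsn, the actin-severing protein gelsolin, by -2.44 ± 0.20 (adjusted p = 1.94e-05). Of the 13 smooth muscle and pericyte markers 1 was called higher, and 9 of the differences were below 0 as deposited but 3 centred. Acta2, smooth muscle actin, rose by 3.001 ± 1.01 (adjusted p = 0.0346). Rgs5, a pericyte marker, had the opposite sign, at -4.96 ± 1.59 (adjusted p = 0.0277) and -4.19 centred (adjusted p = 0.0665).

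Of 18 listed epithelial and mesothelial markers 7 were on the table, and 1 of these was called higher against Ets2 null (3.12% of all probe sets). Msln, the mesothelial surface protein mesothelin, rose by 3.60 ± 1.33 (adjusted p = 0.0488) and 4.38 centred (adjusted p = 0.0298). It was at 9.88 and 6.82 on the arrays labelled double null, at 4.93, 4.41 and 4.90 in Ets2 null arrays, at 9.91, 10.36 and 10.06 in Ets1 null arrays and at 5.06, 5.90 and 10.09 in wild-type arrays. Wild-type array 3 was thus at the Ets1 null level for Msln, as it was for Eng and S1pr1. Krt19, an epithelial keratin, ranged from 10.18 to 13.57 on the arrays labelled double null, from 10.74 to 12.67 in Ets2 null arrays, from 13.70 to 14.28 in Ets1 null arrays and from 7.90 to 12.23 in wild-type arrays. The Ets1 null difference of Krt19 from wild type was 3.39 ± 1.17 (adjusted p = 0.47). The part of other cells in the values of Vegfa, Eng, Plvap and S1pr1 was not tested. In bulk RNA, fewer cells of a type and less RNA per cell cannot be told apart. The 7 of 28 leukocyte markers had a median deposited value between 6.59 and 7.37 in all 11 arrays. The highest of the 7 stood at 10.96, 9.80 and 9.87 in Ets1 null arrays and at 10.06 in wild-type array 3. In the other arrays the highest was between 7.39 and 8.79.

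A nearest gene was sought for the genes whose centred values spanned more than 2 on the log2 scale. It was the other gene with the most similar centred pattern over the 11 arrays, by the root mean square difference. The centred span was 3.87 for Vegfa, and its nearest gene was Pgm1, at 0.31. Eng, with a span of 2.67, was nearest to Chst2 at 0.42, and Plvap, with 3.59, to Rapgef3 at 0.41. Flt1, with 4.24, was nearest to Kcnk2 at 0.44, Egfl7, with 2.09, to Dbi at 0.25, and Cd34, with 6.48, to Glis3 at 0.91. None of these nearest genes was itself one of the 10.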

How the data were processed

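The authors deposited log2 values, 1 for each probe set and array. RMA stands in the submitters' processing notes, without a version or filter. In the third column labelled double null, 20521 of 20523 probe sets equalled the mean of the other two within 1e-06, and the column was left out. Symbols came from the platform annotation; 18824 probe sets carried 1 symbol. All probe sets of 11 arrays entered 1 model with group means (limma 3.58.1, lmFit and eBayes, two-sided, 7 residual degrees of freedom, R 4.3.3), once as deposited and once with array medians subtracted. The members and lists were chosen with earlier results of these data known. Besides the 10 genes, the text names absent markers, nearest patterns and up to 4 genes per list and comparison with the smallest p; Thbd and Cav1 levels, Ets1 and Ets2 are given as context. Alternatives left out each array, used a replicate block, array weights, a term for male arrays, quantile normalization, other probe set rules, 1 scale alone or all 12 columns. The fit was tested on simulated data.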

Additional observations from a re-analysis of the deposited data

Results flagged for a closer look

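The effect of Ets2 loss differed between cells labelled Ets1 null and cells with Ets1 in 2 of the 19 probe sets, by limma's interaction term. Of these, 1 was called higher and 1 lower, where 1.44% of all probe sets were called higher and 9.36% lower. For Vegfa 1420909_at the difference of the effects was 2.32 ± 0.66 on the log2 scale (SE, adjusted p = 0.0227). The effect was 1.24 between the arrays labelled double null and the Ets1 null arrays and -1.09 between Ets2 null and wild-type arrays. The other Vegfa probe set gave 0.39 ± 0.41 (adjusted p = 0.485). Leaving out Ets2 null array 2 or the second array labelled double null ended the Vegfa call. Averaging both probe sets or adding a term for male arrays also ended it.

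For Gata2 1428816_a_at the difference of the effects was -3.34 ± 0.71 (adjusted p = 0.00626). The effect was -2.28 between the arrays labelled double null and the Ets1 null arrays and 1.06 between Ets2 null and wild-type arrays. The brighter Gata2 probe set gave -2.35 ± 0.66 as deposited (adjusted p = 0.0211) and -1.53 centred (adjusted p = 0.137). The alternatives used the brightest probe set of a gene or the mean of its sets, so 1428816_a_at alone was not put through them. In both genes the term rests on the 2 arrays labelled double null, whose Ets1 probe sets disagreed with each other, and on Ets2 null arrays that were all male.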

How the results depend on the processing

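Of 1304 differences of single genes under an alternative, 1149 stayed on their side of the threshold and within 1 standard error where uncalled, 98 moved further, 14 lost a call, 43 gained one and 0 reversed a call. Leaving out 1 array at a time gave 0 to 1 genes called for Ets1 null against wild type, 0 to 2 for the arrays labelled double null against wild type, 0 to 1 against Ets1 null, 1 to 4 against Ets2 null and 0 to 1 for the interaction. The cause was not tested. Array weights called 2 genes, Plvap and Vegfa, in Ets2 null against wild type. With a term for male arrays, 0 were called against Ets2 null and 0 in the interaction, and averaging probe sets left 0 in the interaction. Deposited values alone called 6 genes for the arrays labelled double null against wild type, 5 against Ets1 null, 8 against Ets2 null and 4 in the interaction. Centred values alone and quantile normalization each called 1 gene, Vegfa, against wild type and against Ets1 null. Only the compared groups gave 1 against wild type (Egfl7) and 1 against Ets1 null (Vegfa), and all 12 columns gave 2 (Egfl7 and Eng) and 1 (Vegfa).

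Replicate numbers gave no sign of pairing the arrays. Deviations from the group mean correlated between -0.306 and 0.1 for arrays with 1 number and between -0.148 and 0.306 for unlike numbers. The 2 arrays labelled double null deviate from their mean by equal and opposite amounts, so -0.306 and 0.306 mirror each other. A replicate block called 1 gene, Vegfa, against wild type and 1, Vegfa, against Ets1 null, and changed no other count beyond 1.5 times. Against Ets2 null, Vegfa kept its call in 20 of 22 alternatives (1.08 to 2.75, the latter centred). Eng kept it in 18 of 22 (-3.20 to -1.43) and Plvap in 18 of 22 (-3.67 to -1.99), with 1 direction for each gene. These counts include alternatives that were no full test. A call needs both scales, so either scale alone was bound to keep it. Leaving out a wild-type or Ets1 null array kept the difference and changed only its error. The fit on every column added the mean of the 2 arrays labelled double null as if it were an array. The filter on dim probe sets kept 19632 and dropped Mmrn2. The interaction has no fit on the compared groups alone, since it uses all 4. With 2 arrays labelled double null, their own spread is poorly known.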
